A study of Sus scrofa with 11 samples.

Results

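Pan-myeloid genes are the genes that macrophages, monocytes, dendritic cells and granulocytes use in common, together with genes shared by all leukocytes. A fixed list of 32 of them was followed in pig (Sus scrofa) carotid artery. The gene name column of the count table held 29 of the 32, out of 35670 genes in that table, and these 29 are the members counted below. CD68 had no name in the table and was identified by its gene identifier, while ADGRE1 and CD300LF were identified by their position on Sscrofa11.1. These 3 genes are described beside the members and are not in the counts. All 29 members passed the filter on low counts, as did the other 3.

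The SWNT-SHP1i pigs had weekly intravenous infusions, at 400 nM, of single-walled carbon nanotubes carrying a chemical that blocks the phosphatase SHP-1, a treatment aimed at macrophages in atherosclerosis. The SWNT pigs had the same dose of unloaded nanotubes. Both groups ate a Western-type diet high in fat and calories for 12 weeks, and neither the strain, the sex nor the age of the animals is given. Counts of 5 SWNT-SHP1i and 5 SWNT libraries were analysed, each from a separate animal, and a sixth SWNT-SHP1i animal (replicate 4) is labelled as having died before harvest. The libraries held 27593564 to 47718854 counts. Arterial wall markers were abundant in all 10 libraries: MYH11, the smooth muscle myosin heavy chain, lay between 2400 and 15825 CPM (read counts normalised for library size), ACTA2 between 6196 and 14341 CPM, PECAM1 between 137 and 505 CPM, and VWF between 66.0 and 422 CPM. No single gene passed an adjusted p of 0.05 among 15930 tested with edgeR's quasi-likelihood test.

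Macrophages settle in the arterial wall and also enter it as monocytes from blood, and in atherosclerosis they take up lipoproteins and clear dying cells. Their identity rests on the transcription factor PU.1, encoded by SPI1, and their survival on the growth factor receptor CSF1R. Roles given below are known mainly from human and mouse cells. In bulk tissue, more cells of a type and more RNA per cell cannot be told apart.

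As a group, the members stood higher in SWNT-SHP1i than in SWNT artery, without any of them passing the test. Fold changes were positive for 27 of 29 members, where 50.8% of all genes tested had a positive one. The median log2 fold change (SWNT-SHP1i over SWNT) was 1.07 over the members and 0.01 over all genes tested. At an adjusted p under 0.05 the count was 0 of 29 with edgeR, DESeq2 and limma-voom alike, against 0% of all genes in each direction with edgeR. At an unadjusted p under 0.05, 13 of 29 members were higher with edgeR, where 3.49% of all genes were, and 0 were lower, where 1.15% were. With DESeq2 the unadjusted count was 17, where 4.82% of all genes were higher, and with limma-voom it was 9, where 4.87% were. For all 29 members the libraries of both groups overlapped, while 0.0816% of all genes had every SWNT-SHP1i library above every SWNT library. Members of one cell lineage share their source, so these counts are not independent observations.

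One animal carried much of this difference. SWNT-SHP1i replicate 6 had the highest level of all 10 libraries for 25 of 29 members. SWNT-SHP1i replicate 5 went the other way, with 11 members below every SWNT library. The shares of all genes for these counts were not computed, so the counts are not shown to be particular to the members. Without replicate 6 the median log2 fold change of the members was 0.43, 25 of 29 were positive, and 2 of 29 (CD14 and CD86) were higher at an unadjusted p under 0.05, where 2.59% of all genes were. Without replicate 5 the corresponding count was 22 of 29, where 6.31% of all genes were. Leaving out an SWNT library moved it in both directions, up to 17 without SWNT replicate 1 (3.65% of all genes) and down to 5 without SWNT replicate 2 (1.75%). It was 7 without SWNT replicate 3 (2.73%), 7 without SWNT replicate 4 (2.15%) and 9 without SWNT replicate 5 (1.89%). Over the animals whose labelled number begins with B9 it was 6 (2.77%). It was 1 without SWNT-SHP1i replicates 3 and 6 (1.76%), and 1 without the 3 libraries of most even counts (2.08%), which are SWNT-SHP1i replicates 3 and 6 and SWNT replicate 3. In the map of levels by library, replicate 6 is the deepest red column and replicate 5 is mostly blue.

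**Figure D1:**
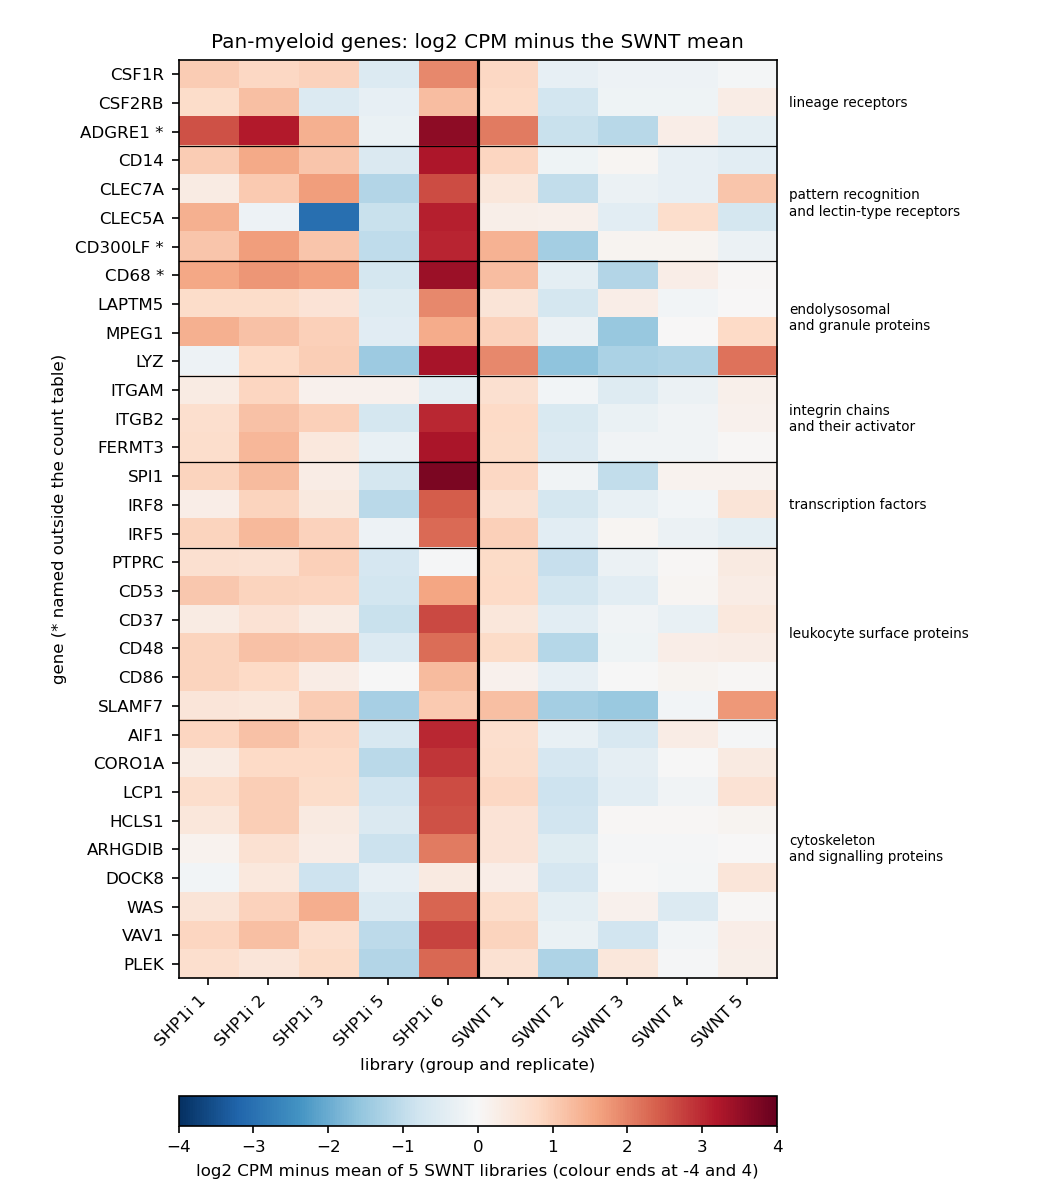
Each cell shows the log2 CPM of a gene in a library minus the mean of the 5 SWNT libraries, red for higher and blue for lower, with the SWNT-SHP1i libraries on the left, genes grouped by role, and an asterisk on the 3 genes named outside the count table. SWNT-SHP1i replicate 6 was the highest library for 25 of the 29 members, and ITGAM, PTPRC, DOCK8 and SLAMF7 were the 4 for which it was not. The share of all genes highest in that library was not computed.

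The transcription factors came out as follows. SPI1 (chromosome 2, 15227881 to 15245677, plus strand, Sscrofa11.1) had 40.7, 52.6, 26.5, 13.4 and 298 CPM in SWNT-SHP1i replicates 1, 2, 3, 5 and 6. In SWNT replicates 1 to 5 it had 38.6, 19.7, 11.07, 24.1 and 24.1 CPM. Replicate 6 thus stood 5.67-fold above the next highest library, and 3 of 5 SWNT-SHP1i libraries lay above every SWNT library. The log2 fold change was 1.88 ± 0.72 (SE; unadjusted p = 0.0228, adjusted p = 0.997 with edgeR), and 0.50 without replicate 6. IRF5, a factor of the inflammatory macrophage response, had 35.5, 46.3, 36.2, 16.6 and 90.9 CPM in SWNT-SHP1i and 36.9, 14.3, 19.8, 16.2 and 14.5 CPM in SWNT. Here SWNT replicate 1 lay above 3 of the 5 SWNT-SHP1i libraries. The log2 fold change of IRF5 was 1.15 ± 0.41 (unadjusted p = 0.0167, adjusted p = 0.997), and 0.73 without replicate 6. IRF8, which directs monocyte and dendritic cell development, gave 0.94 ± 0.53, and 0.19 without replicate 6.

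Among the lineage receptors, CSF1R (chromosome 2, 151102147 to 151147633, minus strand) had 260, 228, 243, 87.6 and 489 CPM in SWNT-SHP1i. Its SWNT values were 227, 101, 112, 111 and 121 CPM. The count of SWNT-SHP1i libraries above every SWNT library was 4 of 5, although SWNT replicate 1 came close to the lowest of these 4, and replicate 5 was below every SWNT library. CSF1R gave a log2 fold change of 0.96 ± 0.39 (unadjusted p = 0.0274, adjusted p = 0.997), and 0.61 without replicate 6. CSF2RB, the shared signalling chain of the receptors for GM-CSF and related cytokines, gave 0.55 ± 0.39 and 0.35. ADGRE1, the adhesion receptor used as a macrophage marker in mice, was low, at 6.30, 9.73, 2.82, 0.84 and 12.8 CPM in SWNT-SHP1i and 4.54, 0.53, 0.45, 1.25 and 0.78 CPM in SWNT. Its log2 fold change of 2.10 ± 0.80 was the highest of the 32 genes, and it kept 1.70 without replicate 6.

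The receptors for microbial and cellular debris were led by CD14 (chromosome 2, 142346360 to 142349581, minus strand), the co-receptor for lipopolysaccharide. CD14 had 51.7, 73.9, 55.5, 17.2 and 243 CPM in SWNT-SHP1i, against 46.0, 22.6, 27.2, 20.3 and 19.1 CPM in SWNT. As for CSF1R, 4 SWNT-SHP1i libraries were above and replicate 5 below every SWNT library. The log2 fold change was 1.71 ± 0.56 (unadjusted p = 0.0104, adjusted p = 0.997), and 0.87 (unadjusted p = 0.0406) without replicate 6. CLEC7A, the receptor for fungal beta-glucan, gave 1.23 ± 0.67, and 0.63 without replicate 6. CD300LF, an inhibitory lipid receptor of myeloid cells, gave 1.47 ± 0.72 and 0.76. CLEC5A, a receptor that signals through the adaptor TYROBP, was close to its detection limit, with 0 counts in SWNT-SHP1i replicate 3 (which allows up to 0.0815 CPM), and 6 to 89 counts in the other 9 libraries. Its log2 fold change was 1.37 ± 1.12, and -0.02 without replicate 6.

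Of the endolysosomal and granule proteins, LAPTM5, a lysosomal membrane protein of leukocytes, had 145, 144, 126, 60.8 and 327 CPM in SWNT-SHP1i and 124, 53.3, 103, 80.3 and 86.6 CPM in SWNT. LAPTM5 gave a log2 fold change of 0.84 ± 0.38 (unadjusted p = 0.0466, adjusted p = 0.997), and 0.41 without replicate 6. MPEG1, the pore-forming protein of the phagosome, differed from most members in that replicate 6 hardly stood out. MPEG1 had 124, 105, 91.0, 34.1 and 132 CPM in SWNT-SHP1i and 89.3, 40.0, 16.3, 46.7 and 81.5 CPM in SWNT. Its log2 fold change of 0.83 ± 0.44 (unadjusted p = 0.0862) was 0.69 without replicate 6. CD68, a heavily glycosylated protein of macrophage endosomes, had 52.5, 61.0, 55.6, 11 and 193 CPM in SWNT-SHP1i and 42.5, 13.5, 7.93, 21.5 and 18.5 CPM in SWNT. CD68 gave 1.85 ± 0.63 (unadjusted p = 0.0121, adjusted p = 0.997), and 1.12 without replicate 6. LYZ, the secreted lysozyme, was the most scattered member within SWNT, with 11.13, 22.0, 25.4, 4.62 and 126 CPM in SWNT-SHP1i and 48.8, 4.16, 5.27, 5.47 and 57.4 CPM in SWNT. LYZ gave 0.64 ± 0.94, and -0.62 without replicate 6.

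ITGAM and ITGB2 encode the chains of the complement receptor integrin that myeloid cells use to adhere and engulf, and FERMT3 encodes kindlin, which activates it. ITGB2 (chromosome 13, 207512950 to 207544107, minus strand) had 51.7, 72.9, 63.0, 19.9 and 262 CPM in SWNT-SHP1i, against 56.6, 21.4, 26.9, 29.5 and 36.7 CPM in SWNT. FERMT3 ran in parallel, at 15.1, 23.3, 12.3, 7.52 and 89.6 CPM in SWNT-SHP1i and 15.7, 6.31, 8.37, 8.36 and 9.40 CPM in SWNT. The log2 fold changes were 1.46 ± 0.56 for ITGB2 and 1.62 ± 0.59 for FERMT3, and both were 0.60 without replicate 6. ITGAM (chromosome 3, 17204610 to 17273613, minus strand) did not share the high value of replicate 6. ITGAM had 24.0, 34.4, 21.3, 21.6 and 14.6 CPM in SWNT-SHP1i and 29.8, 17.7, 13.3, 16.2 and 21.9 CPM in SWNT, so that replicate 6 was the second lowest of the 10 libraries. Its log2 fold change was 0.23 ± 0.28 (unadjusted p = 0.426, adjusted p = 0.997; approximate 95% interval -0.31 to 0.77), and 0.35 without replicate 6.

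The leukocyte surface proteins split in the same way. PTPRC (chromosome 10, 21560073 to 21601308, plus strand) encodes CD45, the phosphatase carried by all nucleated blood cells. PTPRC had 35.6, 35.3, 44.5, 14.5 and 22.1 CPM in SWNT-SHP1i and 39.0, 12.1, 19.4, 23.8 and 29.7 CPM in SWNT. Replicate 6 ranked 7th of 10 and the groups covered nearly the same range, with a log2 fold change of 0.30 ± 0.35 (unadjusted p = 0.414, adjusted p = 0.997; interval -0.39 to 0.98). CD86, the costimulatory ligand for T cells, showed the opposite case, a moderate difference not carried by 1 library. CD86 had 13.7, 12.9, 8.91, 7.25 and 17.8 CPM in SWNT-SHP1i and 8.24, 5.84, 7.28, 7.88 and 7.54 CPM in SWNT, with a log2 fold change of 0.72 ± 0.27 (unadjusted p = 0.0215, adjusted p = 0.997), and 0.54 (unadjusted p = 0.0443) without replicate 6. An exact permutation test of its mean log2 CPM, two-sided over 252 assignments, gave p = 0.0476 (unadjusted), the lowest among the 29 members. No other member was under 0.05 by this permutation test, which gave 0.0635 for IRF5, 0.0873 for CD14 and 0.19 for SPI1. The share of all genes under 0.05 by the permutation test was not computed. A count of 1 among 29 members is not read as a difference. The tetraspanins CD53 (0.81 ± 0.39) and CD37 (1.07 ± 0.55) and the SLAM family ligand CD48 (1.10 ± 0.47) gave 0.58, 0.14 and 0.67 without replicate 6. SLAMF7, a receptor of the same family, was low at 0.58 to 5.87 CPM and gave -0.01 ± 0.69.

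Proteins of the leukocyte cytoskeleton and its signalling gave 4 of the 13 members past the unadjusted threshold. These were the actin-bundling calcium sensor AIF1 (1.47 ± 0.55), the Wiskott-Aldrich protein WAS (1.17 ± 0.46), the exchange factor VAV1 (1.24 ± 0.56) and the cortactin homologue HCLS1 (1.09 ± 0.50). Without replicate 6 they gave 0.64, 0.69, 0.52 and 0.35. The actin-binding proteins CORO1A (1.24 ± 0.59) and LCP1 (1.13 ± 0.53), the platelet and leukocyte protein PLEK (0.88 ± 0.54) and ARHGDIB (0.75 ± 0.44) did not pass it, and gave 0.29, 0.43, 0.24 and 0.10 without replicate 6. DOCK8, an exchange factor for Cdc42, stood apart again, with 9.63, 13.9, 5.81, 8.24 and 13.4 CPM in SWNT-SHP1i and 12.6, 6.49, 10.4, 9.86 and 14.7 CPM in SWNT. DOCK8 gave a log2 fold change of -0.09 ± 0.30 (interval -0.68 to 0.51). Reads of HCLS1 and FERMT3 may include some from genes on the opposite strand that overlap them (FBXO40 and TRPT1), since the strand setting is not given.

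**Figure D2:**
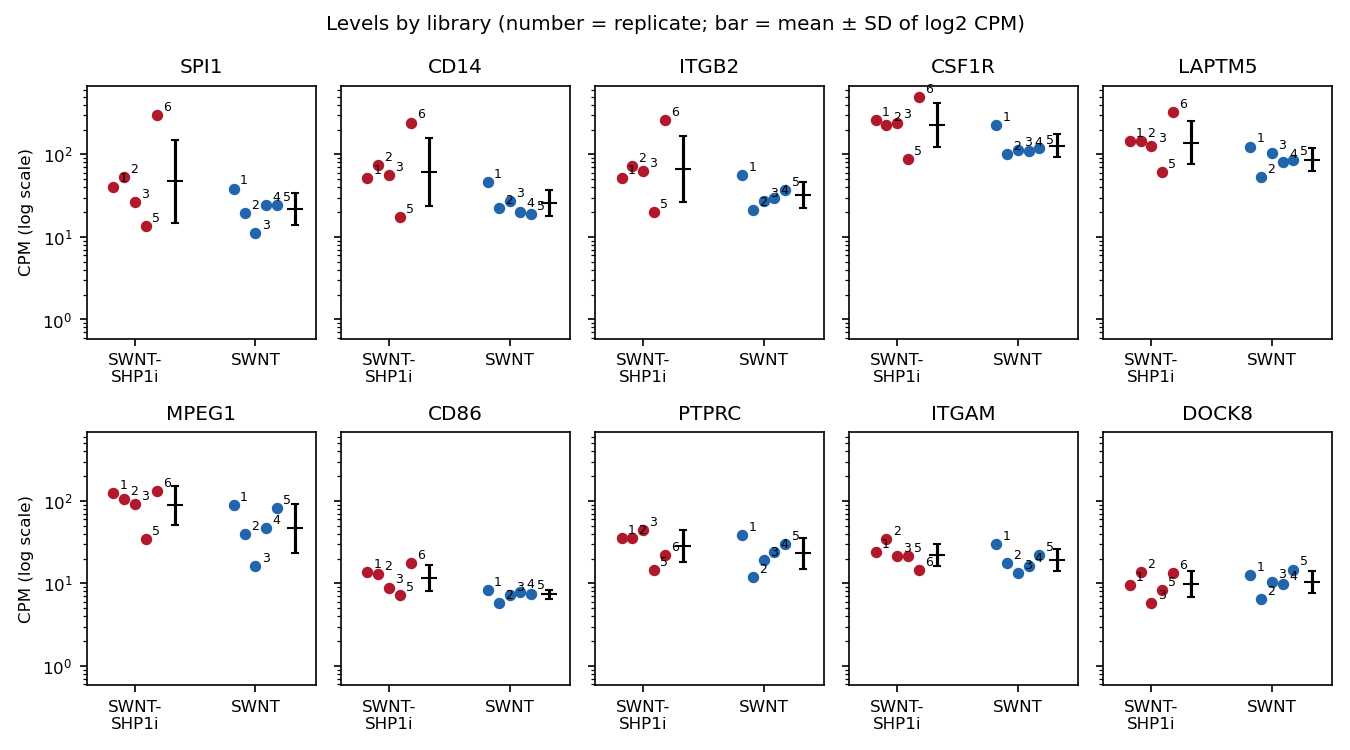
CPM on a log axis in each SWNT-SHP1i (red) and SWNT (blue) library for 10 members, with replicate numbers beside the points and a bar for the mean ± SD of log2 CPM (n = 5 each). Replicate 6 was highest for SPI1 at 298 CPM, but lay inside the range of the other libraries for PTPRC, ITGAM and DOCK8.

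**Figure D3:**
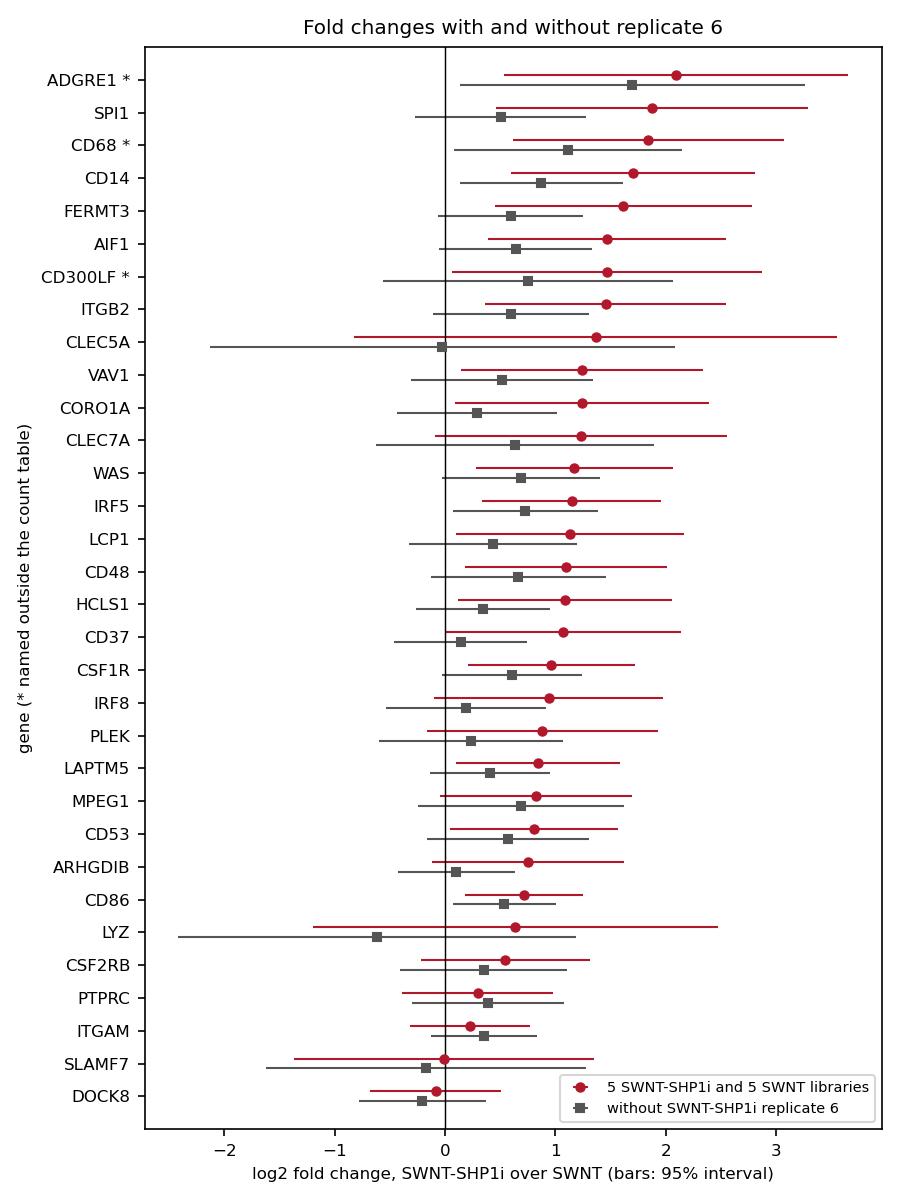
Log2 fold change of SWNT-SHP1i over SWNT for all 32 genes with approximate 95% intervals, over all 10 libraries (red circles) and without SWNT-SHP1i replicate 6 (grey squares). Over all libraries 15 of the 29 members had a log2 fold change above 1, and 0 had one without replicate 6. Among all genes tested over all libraries, the 95th percentile of the log2 fold change was 1.04.

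Compared per exon length, LAPTM5 was the most abundant member, at a mean of 92.7 RPKM (CPM per kilobase of exon) in SWNT-SHP1i and 51.8 RPKM in SWNT. SPI1 (59.0 and 16.1 RPKM), CSF1R (56.6 and 29.0 RPKM) and ARHGDIB (56.1 and 33.3 RPKM) followed in SWNT-SHP1i, whereas in SWNT the order after LAPTM5 was ARHGDIB, CSF1R, LYZ (29.5 and 18.9 RPKM) and SPI1. These neighbours in the order overlap in their ranges over libraries. CLEC5A (0.37 and 0.14 RPKM) was the least abundant.

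Members followed one another closely from animal to animal. Over the 10 libraries the median Pearson r of log2 CPM among the 406 pairs of members was 0.84, and 226 pairs (55.7%) had an r above 0.8. ITGB2 had the highest median r with the other members (0.95), and ITGAM the lowest (0.07), below PTPRC (0.48), DOCK8 (0.45) and CLEC5A (0.49). The closest pair, singled out after its value was seen, was CORO1A with IRF8 (r = 0.99). Points share their library scaling, and a single extreme library raises such values, so these are descriptions. The median r and the share above 0.8 over pairs of all genes were not computed, here or without replicate 6. The values are therefore not shown to be particular to the members. Taken as deviations from the group means, the median r was 0.83, close to the value over both groups together.

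Without replicate 6 the median r over 9 libraries was 0.79, with 190 pairs (46.8%) above 0.8. The members that had stood apart then split. The median r of PTPRC with the other members was 0.85 over 9 libraries, against 0.48 over 10, and that of ITGAM was 0.63 against 0.07. DOCK8 stayed loosely related (0.36 against 0.45), and CLEC5A had a median r of -0.04 against 0.49. Of 4 pairs fixed for a closer look (8 tests in the family), CD68 with CD14 had r = 0.92 (permutation p = 0.00054, adjusted p = 0.00432) and rho = 0.84 (permutation p = 0.00378, adjusted p = 0.0151). That pair had r = 0.95 without the 2 libraries farthest from the CD68 median (SWNT-SHP1i replicate 6 and SWNT replicate 3), and r = 0.86 and rho = 0.78 without replicate 6 alone. PTPRC with SPI1 had r = 0.28 (permutation p = 0.45, adjusted p = 0.45) and rho = 0.56 (permutation p = 0.0969, adjusted p = 0.13), but r = 0.73 without replicate 6. PTPRC with ITGB2 had r = 0.47 (permutation p = 0.176, adjusted p = 0.201) and rho = 0.66 (permutation p = 0.0436, adjusted p = 0.116), and r = 0.94 without replicate 6. PTPRC with CD68 had r = 0.56 (permutation p = 0.0972, adjusted p = 0.13) and rho = 0.60 (permutation p = 0.0743, adjusted p = 0.13), and r = 0.85 without replicate 6. For the 3 pairs with PTPRC the 2 libraries farthest from its median were SWNT-SHP1i replicate 5 and SWNT replicate 2. Over the 8 libraries without these, replicate 6 included, r was 0.32 with CD68, -0.03 with SPI1 and 0.05 with ITGB2.

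**Figure D4:**
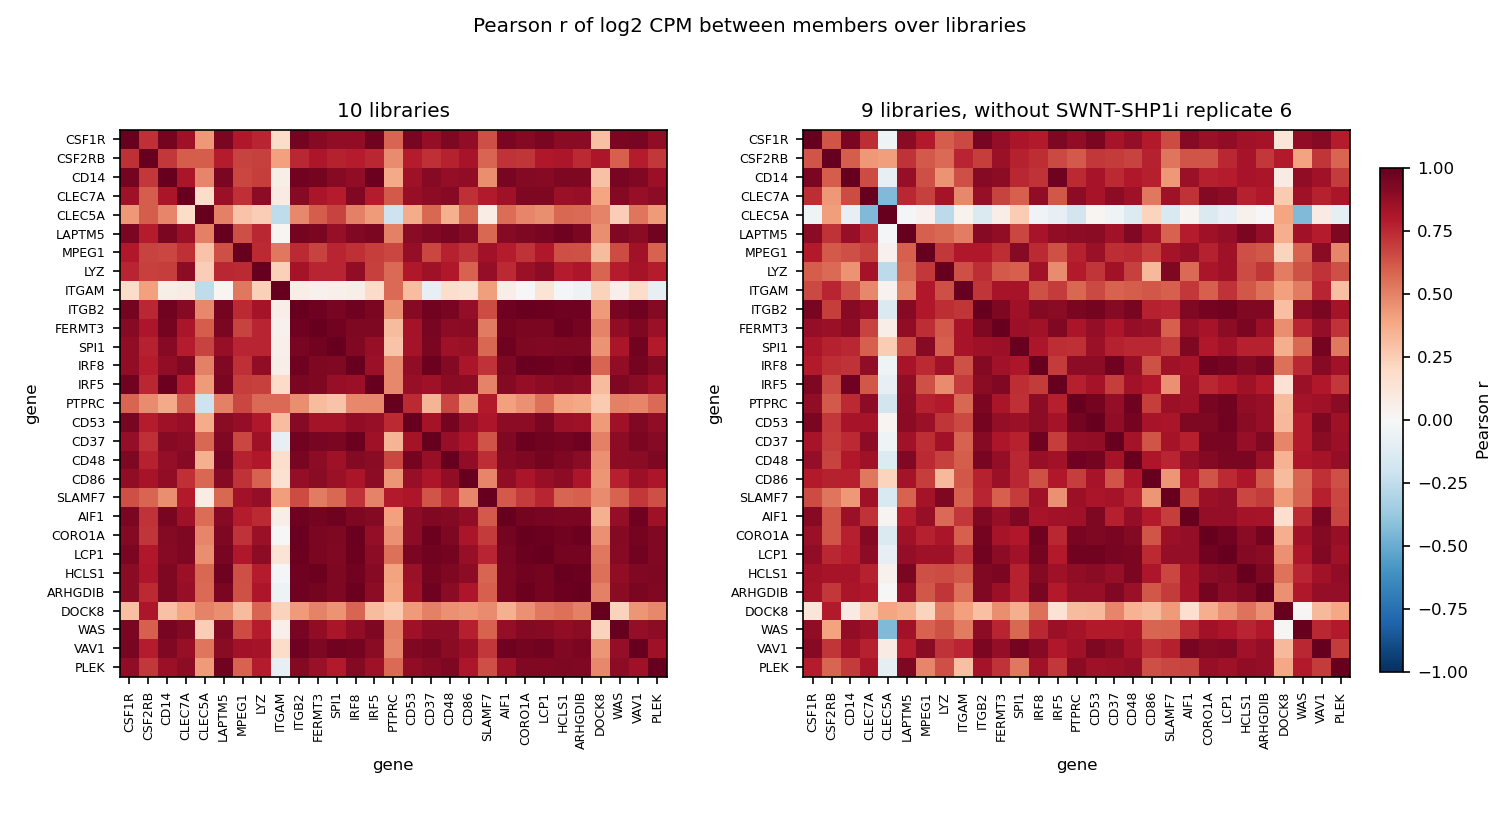
Pearson r of log2 CPM between each pair of the 29 members, over 10 libraries on the left and over the 9 without SWNT-SHP1i replicate 6 on the right. The pale PTPRC and ITGAM rows of the left panel (median r 0.48 and 0.07) darken on the right (0.85 and 0.63), while the CLEC5A row pales (-0.04).

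Set against PTPRC in the same library, replicate 6 was unlike any other. The median over 28 members of log2 CPM minus that of PTPRC was -0.81, -0.25, -1.09, -0.75 and 1.90 in SWNT-SHP1i replicates 1, 2, 3, 5 and 6. In SWNT replicates 1 to 5 it was -0.55, -0.36, -0.58, -0.66 and -0.75. The ratio of SPI1 to PTPRC on the linear scale was 13.5 in replicate 6 and between 0.57 and 1.63 in the other 9 libraries. For 26 of the 28 members this ratio was highest in replicate 6, the exceptions being ITGAM and SLAMF7. PTPRC itself was not raised in replicate 6 (22.1 CPM), the library in which 25 members had their highest level. High ratios to PTPRC there largely follow from those levels and are not separate evidence. On the log2 ratio scale SPI1 averaged 0.73 ± 1.76 in SWNT-SHP1i and -0.08 ± 0.55 in SWNT (SD, n = 5 each), a difference of 0.81, which was 0.06 without replicate 6. CD14 differed by 0.97 and by 0.39 without it, IRF5 by 0.74 and 0.35, and MPEG1 by 0.62 and 0.39. Over the 28 members the median of these differences was 0.45, and 0.03 without replicate 6.

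**Figure D5:**
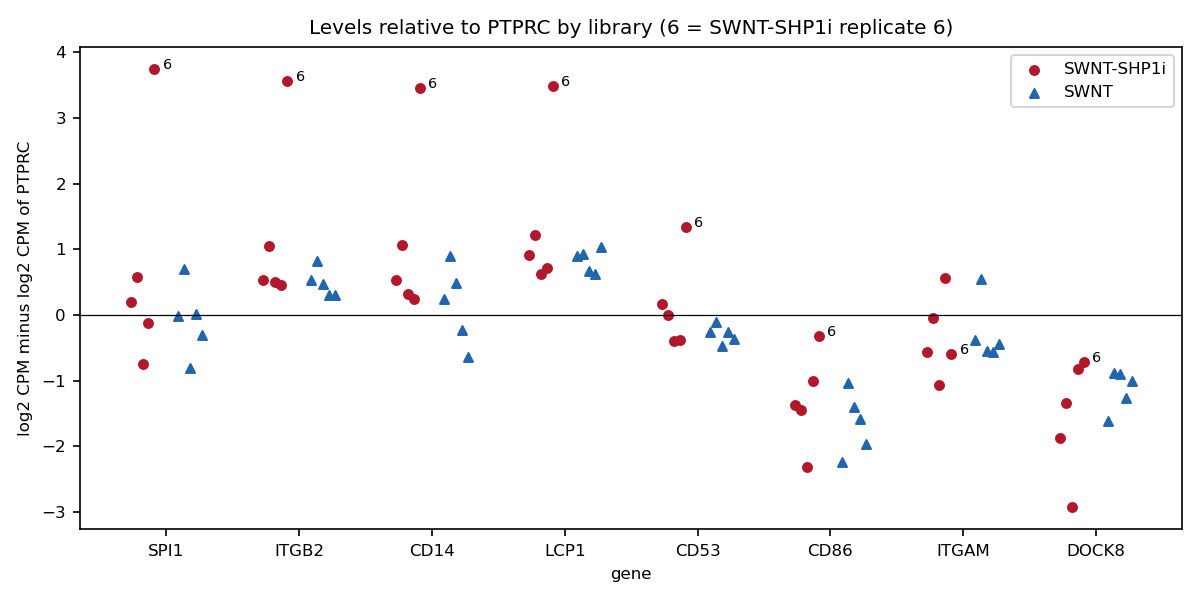
Log2 CPM of 8 members minus that of PTPRC in each SWNT-SHP1i library (red circles, replicate 6 marked) and SWNT library (blue triangles). SPI1, ITGB2, CD14 and LCP1 lay 3.45 to 3.75 above PTPRC in replicate 6 and at most 1.21 above it elsewhere, while ITGAM and DOCK8 in replicate 6 stayed near the other libraries.

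Several other measures moved with these levels, and their part in the result was not tested. The smooth muscle gene MYH11 was lowest in SWNT-SHP1i replicate 6 (2400 CPM) and highest in SWNT replicates 2 (15825 CPM) and 5 (15458 CPM) and SWNT-SHP1i replicate 5 (14276 CPM). Summed over the 29 members, the level was 3375 CPM in SWNT-SHP1i replicate 6, 454 CPM in SWNT-SHP1i replicate 5 and 481 CPM in SWNT replicate 2. SWNT replicate 5 did not follow this inverse order: its sum of 821 CPM was above the 590 and 630 CPM of SWNT replicates 3 and 4, which had less MYH11. The sum in SWNT replicate 1 was 1163 CPM. That lay within the range of SWNT-SHP1i replicates 1, 2 and 3, at 1174, 1314 and 1129 CPM. Exon length also ran with SWNT-SHP1i replicates 6 and 5, in opposite directions. Over 13573 genes the level in replicate 6 relative to the median of the other libraries had a Spearman rho of -0.34 with exon length. Over the 29 members that rho was -0.44. Replicate 5 had the largest rho over all genes, 0.38, and 0.19 over the members. In the remaining libraries the rho over all genes lay between -0.16 and 0.15, and over the members between -0.15 and 0.21. ITGAM (7650 bases) and DOCK8 (9798 bases) have the longest exon sets of the 29, but PTPRC (3775 bases) does not.

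Partners of the members gave 0 genes past the adjusted threshold, and the median of each list is set beside 0.01 for all genes. At the unadjusted threshold 3.49% of all genes were higher and 1.15% lower. Without replicate 6, 2.59% were higher and 319 of 16192 were lower. These shares stand beside all list counts here and below, and a count of 1 in a list is not read as a difference. The 7 tested adaptors of CLEC7A and CLEC5A had a median log2 fold change of 1.38, with 6 positive and 4 of 7 past the unadjusted threshold in the higher direction. Among them the immunoreceptor adaptors TYROBP (1.85 ± 0.67) and FCER1G (1.43 ± 0.52) had the smallest p. That list had a median of 0.37 and 0 of 7 past it without replicate 6, where TYROBP gave 0.62 and FCER1G 0.79. Of 10 genes of the CD14 and TLR4 system 9 were positive and 1 passed (median 0.49), with MYD88 at 0.57 ± 0.21 and TLR4 at 0.78 ± 0.37. Without replicate 6 the count was 2 (median 0.38). Of 11 partners of PU.1 and the IRFs, 8 were positive and 2 passed (median 0.40), the factor CEBPA (1.17 ± 0.45) among them, and without replicate 6 the count was 1 (median 0.11). Of 4 tested genes of the CSF1R and related cytokine receptor system, CSF3R (2.29 ± 0.77) and the CSF1R ligand IL34 (0.66 ± 0.28) passed (median 0.50), and 1 did without replicate 6 (median 0.29).

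Of 14 partners of WAS and VAV1 in actin assembly, 11 were positive and 2 passed (median 0.42), the Arp2/3 subunit ARPC1B (1.07 ± 0.47) and the WAVE complex subunit NCKAP1L (1.15 ± 0.46), and 0 did without replicate 6 (median 0.14), where ARPC1B gave 0.29 and NCKAP1L 0.63. Of 12 leukocyte integrin partners 9 were positive and 0 passed in the higher direction (median 0.32), with RASGRP2 at -0.53 ± 0.20 past the unadjusted threshold in the lower direction and ITGAX at 1.06 ± 0.50. Without replicate 6 the counts were 1 higher and 1 lower (median 0.24). Of 10 genes of the CD86 and SLAM system 9 were positive and 0 passed (median 0.35), with SLAMF6 at 1.48 ± 0.84 and CD84 at 0.71 ± 0.45; 0 passed without replicate 6 (median 0.19). PTPN6, which encodes the inhibited phosphatase and is itself a leukocyte gene, gave 1.34 ± 0.51 (unadjusted p = 0.0216, adjusted p = 0.997), and 0.58 without replicate 6.

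Markers of single leukocyte types were read beside the members. Among all genes, 3.49% were higher at the unadjusted threshold, and 2.59% without replicate 6. Of 12 markers of resident-type macrophages all 12 were positive and 7 passed the unadjusted threshold, a count that was again 7 without replicate 6 (median 1.12, and 1.26 without it). CD163 (1.82 ± 0.45, and 1.57 without replicate 6) and F13A1 (1.93 ± 0.51, and 1.39) came first there. Of 13 markers of lipid-handling macrophages 8 passed, led by ACP5 (5.74 ± 1.51) and GPNMB (2.43 ± 0.68), and their median was 1.88, or 0.16 without replicate 6, where 4 passed in the higher and 1 in the lower direction and ACP5 gave 2.92 and GPNMB 1.51. Their summed level was 17257 CPM in replicate 6 and 1212 to 2215 CPM in the other 9 libraries. Of 9 tested monocyte markers 8 were positive and 5 passed (median 1.82), and 3 passed without replicate 6 (median 1.57). They were led by CD163, which also stands in the resident-type list, and VCAN (1.64 ± 0.47). In the same list CCR2 gave 0.23 ± 0.48, CX3CR1 0.30 ± 0.41, and NR4A1 was negative at -2.25 ± 1.06. Neutrophil markers (5 of 8, median 2.95, or 3 and 1.77 without replicate 6) were led by FFAR2 (3.03 ± 0.74) and PGLYRP1 (3.53 ± 1.01). Their summed level was 48.6, 12.5, 82.2, 5.61 and 355 CPM in SWNT-SHP1i replicates 1, 2, 3, 5 and 6, and 6.38 to 17.04 CPM in SWNT. MMP9 gave 221 CPM of the sum in replicate 6. S100A8, S100A9 and S100A12 stand in this list and in that of monocytes. MPO was at 0 in the 9 libraries other than replicate 6.

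The lymphocyte lists had both signs. Counts of 1 past the unadjusted threshold stand beside 3.49% of all genes higher and are not read as a difference. Of 19 tested T and NK cell markers 8 were positive and 1 passed (median -0.14, and -0.40 without replicate 6), with NKG7 at 2.10 ± 0.76 (0.54 without replicate 6) and KLRK1 at -1.57 ± 0.85. Their summed level was 35.6 to 253 CPM in SWNT-SHP1i and 32.97 to 114 CPM in SWNT. The maximum was that of replicate 6, where NKG7 gave 123 CPM. Of 12 B and plasma cell markers 7 were positive and 1 passed (median 0.23, and 0.08 without replicate 6), with CD22 at 1.04 ± 0.45 and FCRLA at 1.29 ± 0.81, and a summed level of 14.1 to 51.4 CPM in SWNT-SHP1i, again highest in replicate 6, and 13.2 to 44.7 CPM in SWNT. Whether these lists differ from the members was not tested. Of 7 dendritic cell markers 6 were positive and 1 passed (median 0.58, and 0.23 without replicate 6), with FLT3 at 1.97 ± 0.62 and CCR7 at 1.69 ± 0.89. Without replicate 6 they gave 1.88 and 0.03, and CCR7 had 13.1 CPM in replicate 6. The dendritic cell marker CLEC10A and the mast cell marker CPA3 were at 0 in every library.

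Markers of the other cells of the wall were read in the same way. Among all genes, 3.49% were higher and 1.15% lower at the unadjusted threshold. Without replicate 6, 2.59% were higher and 319 of 16192 were lower. All 10 contractile smooth muscle markers were negative and 5 passed the unadjusted threshold in the lower direction (median -0.62, and -0.50 with again 5 without replicate 6), with CNN1 at -0.84 ± 0.24 and TAGLN at -0.67 ± 0.21. All 5 Schwann cell markers were negative and 2 passed (median -0.83), namely SOX10 (-0.83 ± 0.29) and ERBB3 (-1.07 ± 0.45). Of 10 fibroblast markers 9 were positive and 3 passed (median 0.40), led by SFRP2 (4.88 ± 1.31) and COL1A1 (0.98 ± 0.29). Without replicate 6 all 10 were positive and again 3 passed (median 0.55), with SFRP2 at 1.97 and COL1A1 at 0.84. SFRP2 had 4323 CPM in replicate 6 and 6.71 to 186 CPM in the other 9 libraries. Endothelial markers were split at 5 of 10 positive (median 0.04), with ESAM at -0.54 ± 0.23 past the threshold and KDR at 0.64 ± 0.36. None passed among 6 adipocyte (median -0.57; PLIN1 -0.80 ± 0.90, LEP -1.06 ± 1.53), 4 mast cell (median -0.37; MS4A2 0.71 ± 0.51, GATA2 -0.79 ± 0.64) and 3 red cell markers (median -1.46; AHSP -2.14 ± 1.12, ALAS2 -1.46 ± 0.81). The 1 tested skeletal muscle marker, CKM, gave 2.61 ± 0.69. The part of these cells in the members' differences was not tested.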

How the data were processed

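The authors deposited raw gene counts, as 1 table of 35670 genes. The submitters' processing notes list Sscrofa11.1 as build and Trim Galore, STAR and DESeq2 as tools. Versions, counter and strand setting: not given in the sources used here. Poly-A RNA was primed with random hexamers, per the labels. Among genes with at least 10 counts, even numbers made up 80.6% of the values in SWNT-SHP1i replicate 3, 67.3% in SWNT-SHP1i replicate 6, 67.0% in SWNT replicate 3 and 55.6% to 58.2% in the other 7 libraries, so counts may not be independent fragments in all libraries. Replicate numbers follow accession order and pair no animals.

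Counts were filtered with filterByExpr (minimum 10; 15930 genes), scaled by TMM and tested with edgeR 4.0.16 (quasi-likelihood, robust; R 4.3.3), with Benjamini-Hochberg adjustment over all genes and a threshold of 0.05. The fit was also run on simulated counts, drawn gene by gene with the same fold change in every SWNT-SHP1i library. Those counts held no outlying library, so they cannot show how replicate 6 affects the fit. SE is the absolute log2 fold change over the square root of F, and 95% intervals built on it are approximate. CPM and RPKM use TMM-scaled library sizes, and log2 CPM a prior count of 2. Detection limits from counts cover counting error only. Members, lists and named genes (all members, the 2 of smallest p in each list, and a few others) were chosen with earlier results of these data known. List genes took symbols from the table, from gene identifiers or from RefSeq position (intervals sharing 0.5 or more of their union). Alternatives were RLE and upper-quartile scaling, other filters, a non-robust fit, DESeq2 1.42.0, limma-voom (limma 3.58.1), the animal number range, and left-out libraries. No promoter or protein sequence was used here, and 1 gene of the partner lists is not reported here.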

Additional observations from a re-analysis of the deposited data

Results flagged for a closer look

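In 64 sets of 5 libraries (32 genes in each of 2 groups), 3 had a library whose gap to its nearest neighbour exceeded 0.71 of the range of log2 CPM. Chance gives about 1 in 20, so 3 of 64 is near the number that chance alone gives. CSF1R in SWNT replicate 1 stood at 7.82 log2 CPM (227 CPM), far above the other 4 SWNT libraries. MPEG1 in SWNT-SHP1i replicate 5 stood at 5.09 log2 CPM (34.1 CPM), far below the other 4 of its group. SLAMF7 in SWNT-SHP1i replicate 5 stood at -0.49 log2 CPM (0.66 CPM), also far below the rest. The high values of SWNT-SHP1i replicate 6 did not meet this rule. For most members the low replicate 5 of the same group widens the range that the rule divides by. The rule therefore cannot decide whether replicate 6 is outlying.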

How the results depend on the processing

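No paired analysis was possible because the labels give the animals no replicate numbers. The count of members past an adjusted p of 0.05 was 0 in either direction under all alternatives run, and so was the count of all genes; at 0.1 the count of members in the higher direction was also 0. The median log2 fold change of the members was 0.39 without SWNT-SHP1i replicates 3 and 6, and 0.38 without those 2 and SWNT replicate 3 (chosen after seeing the data); with 1 library left out it ran from 0.43 to 1.31. The count of members higher at an unadjusted p under 0.05 (13) was 6 over the animals with B9 numbers, 1 without SWNT-SHP1i replicates 3 and 6, and 1 without the 3 libraries of most even counts. With 1 library left out it ran from 2 to 22: 22 without SWNT-SHP1i replicate 5, 2 without SWNT-SHP1i replicate 6, 5 without SWNT replicate 2 and 7 without SWNT replicate 3 or 4. Without SWNT replicate 1 it was 17, and without SWNT replicate 5 it was 9. The median r among members (0.84) was 0.86 without the 3 libraries of most even counts, 0.77 without the 2 libraries farthest from the median (SWNT-SHP1i replicates 5 and 6) and 0.79 for deviations from the group means without replicate 6. As Spearman rho it was 0.81, and 0.77 without replicate 6, and with 1 library left out r ran from 0.79 to 0.88.

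Of 703 recomputed fold changes of single genes 20 changed sign, in 4 genes. SLAMF7 (-0.01) was 0.022 with RLE scaling, 0.0221 with DESeq2, 0.014 with the 1 CPM filter, 0.00485 with limma-voom, 0.0953 with the animal number range as a term and 0.34 as a difference of mean log2 CPM; with 1 library left out it ran from -0.26 to 0.55. LYZ was -0.0861 with limma-voom, -0.92 without SWNT-SHP1i replicates 3 and 6, -1.18 without the 3 libraries of most even counts, and -0.62 to 1.24 with 1 left out. DOCK8 was 0.10 with limma-voom, 0.0477 over the animals with B9 numbers, and -0.23 to 0.0595 with 1 left out. CLEC5A was -0.0247 without SWNT-SHP1i replicate 6, and up to 1.68 with another library left out. The cause was not tested.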
